A study of Mus musculus with 4 samples.

Results

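The genes described here code for the proteins of the cytosolic ribosome. They were taken by symbol: every gene whose single symbol in the probe annotation was Rpl or Rps followed by a digit, or was Rplp0, Rplp1, Rplp2 or Rpsa, leaving out the S6 kinase genes, Rps19bp1 and pseudogenes. This gave 49 genes of 18194 named on the array, 26 of the large and 23 of the small ribosomal subunit by symbol, with 105 probe sets in all. The rule uses symbols and no measured value, but it was set with earlier results of these data known. The RefSeq mouse table holds 88 protein-coding symbols of this form, and 31 symbols occur on the array only in probe sets that carry several symbols, so the 49 genes are a part of the ribosome's protein set.

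Each ribosome is built from ribosomal RNA and one copy of most ribosomal proteins, which are made in the cytoplasm, imported into the nucleolus and assembled there on the RNA. The messenger RNAs of these proteins begin with a terminal oligopyrimidine tract, a run of C and T bases through which the kinase mTOR and the RNA-binding protein Larp1 set their translation, and the transcription factor Myc is known to raise the output of the whole system. Dividing cells, which in the intestine lie in the lower crypt, are known for high ribosome production.

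Expression was measured on 4 arrays, each holding biotin-labelled RNA from the colon of male mice, with 1 array for each group. The first pair came from H2B-GFP mice, in which a tetracycline-responsive element drives a histone fused to green fluorescent protein. These mice were labelled with doxycycline for 7 days and then kept without it for 2 days, and crypt cells were sorted into GFPhigh, which had kept the label and are called non-proliferating, and GFPlow, which had diluted it and are called proliferating. The second pair held colonic crypt cells of mice with a doxycycline-inducible β-catenin transgene. Dox minus was untreated, and Dox plus had received doxycycline in the drinking water at 2.0 mg/ml for 5 days. Both groups of the second pair carried the transgene, and doxycycline itself and the induced β-catenin cannot be told apart. The sources used here do not give strain, age, the driver of the tetracycline activator or how many mice stand behind each array. With 1 array per group no difference below has a replicate check and no test was run. Precision is limited by there being 4 arrays.

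Values are log2 expression, one per probe set and array, so a difference of 1 is 2-fold. They ran from 0.47 to 16.27. For each gene the probe set brightest on average across the 4 arrays was used, and a gene counted as measured in a pair when at least 1 of the 2 arrays reached a floor of 5. The level of one probe set says nothing of the level of another, so only differences within a pair are compared. The control probe sets for 18S ribosomal RNA averaged 13.03 and 13.29 in GFPhigh and GFPlow but 3.25 and 2.56 in Dox minus and Dox plus. The 3′ minus 5′ level of the beta-actin control was 1.11 and 1.17 in the sorted pair and 0.80 and 0.76 in the crypt pair, so it differed little within a pair. Most of the ribosomal protein genes lay near the top of the scale, with 35 or 36 of 49 at 13 or more on each array.

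Of the 49 genes, 46 were measured in the sorted pair and 45 in the crypt pair. Rpl3l, a paralog of Rpl3 known from striated muscle, Rpl39l, a paralog of Rpl39 known from testis, and Rps16 were under the floor on all 4 arrays. Rpl3l read 2.73, 2.78, 3.05 and 2.87 in GFPhigh, GFPlow, Dox minus and Dox plus. For Rpl39l the values in the same order were 2.53, 2.66, 2.87 and 2.74. Rps16, a core protein of every small subunit, read 1.92, 1.91, 2.10 and 2.00, so its only probe set with a single symbol gave no usable value. Rps27 lay just above the floor in the sorted pair and under it in the crypt pair.

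**Figure D1:**
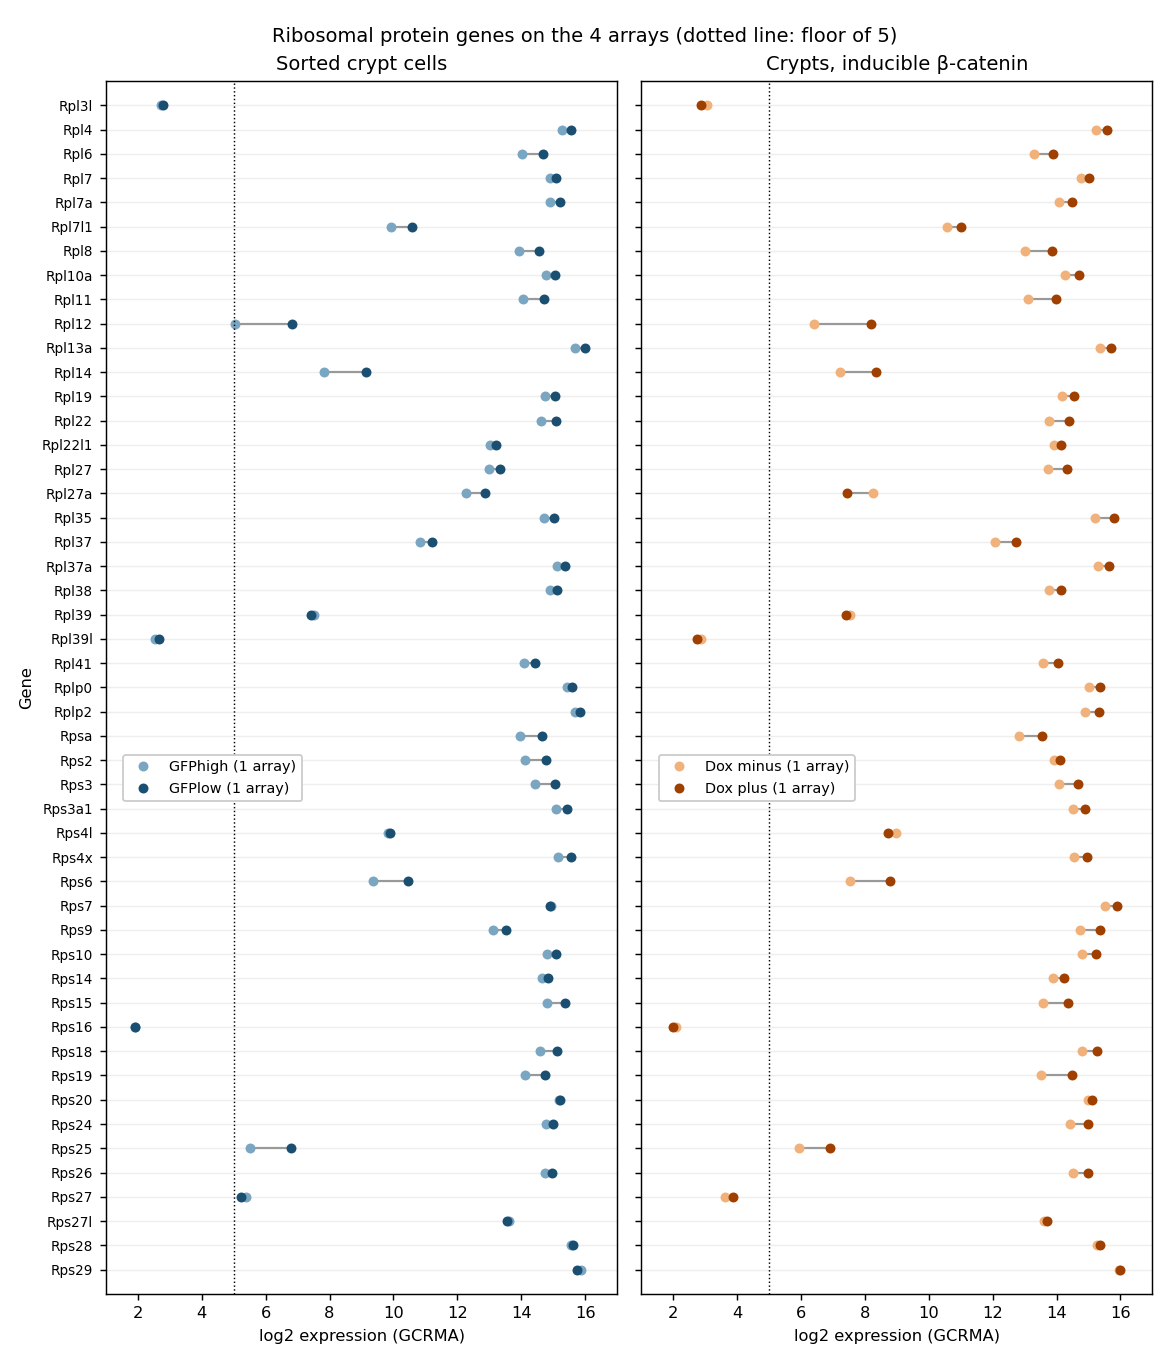
Log2 expression of the 49 ribosomal protein genes (rows) in the sorted cells (left) and the crypts (right), 1 point per array, with a line joining the arrays of a pair and a dotted line at the floor of 5. Most genes sit at 13 or more and the darker point (GFPlow or Dox plus) lies to the right for 41 of the 46 genes measured on the left and 42 of the 45 measured on the right.

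The first comparison asked how ribosomal protein genes differ between proliferating and non-proliferating crypt cells. Most of them were higher in GFPlow, by a small amount. The median difference was 0.32, or 1.25-fold, against 0.04 over all 9381 measured genes, and the interquartile range was 0.19 to 0.61, against -0.31 to 0.42 over all genes. Of 46 measured, 41 were above 0, against 53.2% of all genes, and 27 were at 0.3 (1.23-fold) or more, against 31.6%. None was at -0.3 or less, where 25.6% of all genes lay. At 2-fold the genes did not stand out on their brightest probe sets. There 4 were past it, or 8.70%, against 8.81% of all genes, and 0 were 2-fold lower, against 4.30%. The median became 0.57 over the 19 genes that have a probe set whose suffix (_x_at, _s_at, _a_at) does not mark it as shared by several transcripts.

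**Figure D2:**
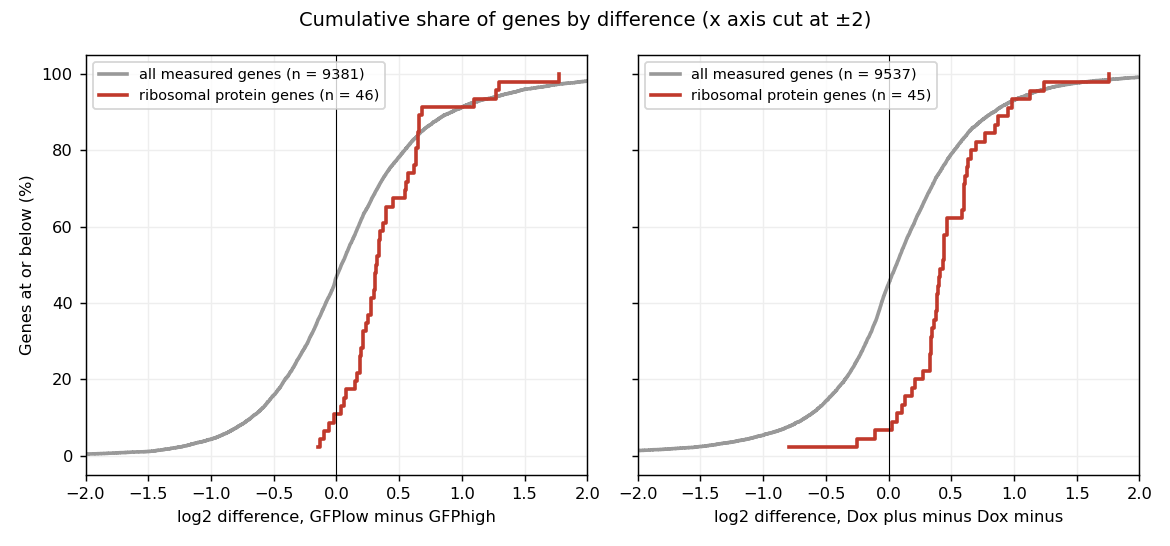
Share of genes (y axis, %) at or below each log2 difference (x axis) for ribosomal protein genes (red) and all measured genes (grey), GFPlow minus GFPhigh on the left and Dox plus minus Dox minus on the right. The red curves lie to the right of the grey ones through their middle part, with medians of 0.32 and 0.43 against 0.04 and 0.06, and run close to them at 1 and above.

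The 4 genes past 2-fold in the sorted cells were Rpl12, Rpl14, Rps25 and Rps6. Rpl12, which helps anchor the stalk that receives elongation factors, read 5.05 in GFPhigh and 6.82 in GFPlow, a difference of 1.77 (3.42-fold). Rpl14, a protein of the large subunit, read 7.84 and 9.14 (1.30). Rps25, a small-subunit protein known for its part in initiation at viral internal ribosome entry sites, read 5.52 and 6.80 (1.27). All of these probe sets lay below 11 on both arrays, where most other ribosomal protein genes were above 13. Rps6, the small-subunit protein phosphorylated by the S6 kinases downstream of mTOR, read 9.37 and 10.46 (1.09). With a floor of 6, Rpl12 dropped to 0.82 and Rps25 to 0.80, since GFPhigh lay under that floor for both.

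Rpsa followed, the small-subunit protein also known as the laminin receptor precursor, at 13.95 in GFPhigh and 14.63 in GFPlow (0.68). At the other end stood Rps27, Rps29, Rpl39, Rps27l and Rps7, the 5 genes at or below 0. Rps27, a zinc-finger protein of the small subunit, read 5.38 and 5.23 (-0.14). Rps29, another small zinc-binding protein, read 15.86 and 15.73 (-0.13). Rpl39, one of the smallest proteins of the large subunit, which lines the exit tunnel, read 7.52 and 7.42 (-0.10). Rps27l, the p53-responsive paralog of Rps27, was at 13.61 and 13.55 (-0.06), and Rps7, which can bind Mdm2, was at 14.92 and 14.90 (-0.02). As the mean of their measured probe sets, Rps29, Rps27l and Rps7 came to 0.02, 0.10 and 0.15, so the side of 0 on which they lay depended on the probe set. Rpl39 and Rps27 have no second probe set with a single symbol.

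The second comparison asked how the same genes differ in crypt cells after 5 days of doxycycline. They were again higher together, by somewhat more. The median difference was 0.43, or 1.35-fold, against 0.06 over all 9537 measured genes, and the interquartile range was 0.33 to 0.62, against -0.25 to 0.42 over all genes. Of 45 measured, 42 were above 0, against 55.0% of all genes, and 35 were at 0.3 or more, against 32.4%. Only Rpl27a was at -0.3 or less, where 22.3% of all genes lay. As in the sorted cells, the share past 2-fold was close to the background, with 3 genes, or 6.67%, against 6.93%, and 0 genes 2-fold lower against 5.35%. Fewer cells of a type and less RNA per cell cannot be told apart in either pair.

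Rpl12 again differed most, at 6.42 in Dox minus and 8.18 in Dox plus (1.76, or 3.39-fold). Rps6 read 7.54 and 8.78 (1.24) and Rpl14 read 7.23 and 8.36 (1.13). Just under 2-fold lay Rps19, the small-subunit protein whose gene is the one most often mutated in Diamond-Blackfan anaemia in humans, at 13.50 and 14.48 (0.98), and Rps25 at 5.94 and 6.90 (0.95). These 5 genes thus include all 4 that were past 2-fold in the sorted cells.

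Rpl27a, a large-subunit protein, was the one gene with a clear difference in the other direction. It read 8.25 in Dox minus and 7.46 in Dox plus (-0.79, or 1.73-fold lower), although it was higher in GFPlow than in GFPhigh, at 12.85 against 12.28 (0.57). Its second probe set was under the floor on all 4 arrays, so the value rests on 1 probe set. Below 0 lay also Rps4l, a paralog of Rps4x, at 8.98 and 8.73 (-0.25), and Rpl39 at 7.52 and 7.41 (-0.11). Next to 0 were Rps29, at 15.96 and 15.98 (0.02), and Rps27l, at 13.62 and 13.69 (0.06). Rps29 came to -0.20 after quantile normalization and to 0.24 as the mean of its 3 probe sets, so its direction was not settled.

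The starts of the genes that differed most were searched for the pyrimidine tract for which ribosomal protein genes are known, and 2 of 4 held it. Windows from RefSeq (GRCm38.p6), 250 bases before to 50 bases after each annotated start, were found for 43 of the 49 genes. The lines below give 10 bases before the start and the first 20 transcribed bases of the genes past 2-fold in either pair, 5′ to 3′ on the gene's strand, with a pyrimidine tract in capitals where C at the annotated start is followed by at least 4 C or T bases.
Rps6 (chr4:86857348-86857377, minus strand): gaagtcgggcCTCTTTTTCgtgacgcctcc
Rpl14 (chr9:120571507-120571536, plus strand): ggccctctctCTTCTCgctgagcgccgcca
Rpl12 (chr2:32961702-32961731, plus strand): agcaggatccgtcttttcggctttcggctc
Rps25 (chr9:44407704-44407733, plus strand): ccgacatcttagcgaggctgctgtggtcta
Rps6 and Rpl14 hold a tract of 9 and 6 bases at the annotated start. Neither Rpl12 nor Rps25 has one at the annotated start. In Rpl12 a run of C and T follows the first base.

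Over all windows, 8 of the 51 windows of ribosomal protein genes (15.7%) had such a tract, against 2.51% of 32851 mouse windows. Besides Rps6 and Rpl14 these were Rpl35, Rpl38, Rplp2, Rps10, Rps18 and Rps27. The longest are shown here in the same way, since they mark the genes with the clearest tract.
Rpl35 (chr2:39005112-39005141, minus strand): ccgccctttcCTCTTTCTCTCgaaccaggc
Rps10 (chr17:27635225-27635254, minus strand): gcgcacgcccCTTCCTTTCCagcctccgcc
Rps18 (chr17:33955646-33955675, minus strand): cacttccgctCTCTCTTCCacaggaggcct
Genes were also split by a tract exactly at the annotated start. Rpl27a, Rpl13a and Rpl7a have runs of C and T close by that start and still count as without. The split thus follows the annotation and cannot show whether a tract goes with the difference. Measured genes with a tract at that position had a median of 0.29 in the sorted pair (8 genes) and 0.46 in the crypt pair (7 genes). Those without it had 0.35 and 0.44 (32 genes each). With the search widened to runs of at least 5 C or T bases beginning with C within 5 bases of the start, a choice made after the first count, 21 of 51 windows matched (41.2%), against 18.3% of all windows.

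Of 4 further motifs searched on both strands of the window, CCGGAAG, the core recognised by ETS family factors, was found most often. It lay in 21 of the 51 windows (41.2%), against 8.86% of all windows. The E-box CACGTG bound by Myc and its relatives was in 5 windows of 4 genes (9.80%, against 7.15%), namely Rpl13a, Rpl14, Rpl19 and Rps19. The YY1 motif was in 2 windows (3.92%, against 0.85%), and TATAAA in 6 (11.8%, against 13.6%). A match is a run of letters and not a measured binding site. Matches in 4 of the genes with the largest differences are printed with the motif in capitals and 12 bases on either side.
Rps6 (chr4:86857440-86857470, minus strand): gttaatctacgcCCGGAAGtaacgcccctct
Rps25 (chr9:44407629-44407659, plus strand): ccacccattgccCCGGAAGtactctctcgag
Rpl14 (chr9:120571337-120571366, plus strand): ccaagctcactgCACGTGtctgaggagaag
Rps19 (chr7:24884781-24884810, plus strand): tggagccgcggcCACGTGcgagcggcaggc
The measured genes with CCGGAAG had a median difference of 0.34 in the sorted pair and 0.44 in the crypt pair (20 genes each), and those without it 0.33 (20 genes) and 0.44 (19 genes). The 4 genes with CACGTG had medians of 0.48 and 0.68, against 0.34 and 0.44 for the others with a window. Of the 4, Rpl13a (0.31 and 0.34) and Rpl19 (0.32 and 0.38) lay below the medians of those others. Rpl14 (1.30 and 1.13) and Rps19 (0.63 and 0.98) lay above them. Whether the motif goes with the difference was not tested.

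The medians of the subunits were close. In the sorted pair the 24 measured large-subunit genes had a median of 0.32 and the 22 small-subunit genes 0.31. In the crypt pair the medians were 0.44 over 24 and 0.41 over 21. With the probe sets marked as shared left out they were not: the small-subunit median was 0.68 in the sorted pair and 0.97 in the crypt pair, against large-subunit medians of 0.45 and 0.36. The latter medians rest on fewer genes, some read on probe sets at a low level. In Dox minus and Dox plus, Rps3 then read 6.89 and 8.76, Rps9 4.26 and 6.44, and Rpl12 of the large subunit 6.42 and 8.18. The part of probe set level in this contrast was not tested.

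The stalk of the large subunit recruits the factors that drive elongation. Its base protein Rplp0 read 15.43 in GFPhigh and 15.58 in GFPlow (0.15), and 15.02 in Dox minus and 15.35 in Dox plus (0.33). Rplp2, one of its acidic arms, read 15.67 and 15.84 (0.16), then 14.90 and 15.34 (0.44). Both lay among the smaller differences in the sorted pair, while their neighbour Rpl12 had the largest. Rpl12 rests on 1 probe set close to the floor (5.05 and 6.82), and the other 2 were read near the top of the scale. The part of probe set level in this contrast was not tested. Rplp1 has no probe set with a single symbol here.

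Rpl11 joins 5S ribosomal RNA and Rpl5 in a particle that binds Mdm2 and so stabilises p53 when assembly stalls. It read 14.06 in GFPhigh and 14.71 in GFPlow (0.65, or 1.57-fold). In the crypts it read 13.11 and 13.98 (0.88, or 1.83-fold), higher than 90.9% of all measured genes by difference. Rpl8, which lies close to the peptidyl transferase centre, showed much the same values, at 13.94 and 14.56 (0.62) and then 13.01 and 13.85 (0.85). Rpl6 read 14.02 and 14.67 (0.65), then 13.28 and 13.89 (0.61).

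Proteins at the exit tunnel of the large subunit varied, with Rpl39, described above, at -0.10 and -0.11. Rpl4, whose loop lines the tunnel, differed by 0.27 in the sorted pair and 0.34 in the crypts. Rpl35, at the tunnel's mouth, differed by 0.31 and 0.60 and Rpl19 by 0.32 and 0.38. Rpl38, which in the mouse is known for its part in the translation of Hox messenger RNAs, differed by 0.20 and 0.36. Among the other large-subunit genes, Rpl7a, Rpl10a, Rpl13a, Rpl22, Rpl27, Rpl37 and Rpl41 were at 0.3 or more in both pairs. Their differences ran from 0.30 to 0.46 in the sorted pair and from 0.34 to 0.66 in the crypts. The paralog Rpl7l1, taken up below, was also at 0.3 or more in both. Rpl37a stood at 0.25 and 0.33.

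Rps3 and Rps2 are small-subunit proteins near the channel by which messenger RNA enters. Rps3 read 14.43 in GFPhigh and 15.06 in GFPlow (0.63), and Rps2 14.13 and 14.78 (0.66). In the crypts they parted, with Rps3 at 14.08 and 14.68 (0.60) and Rps2 at 13.92 and 14.11 (0.19). Rps15, in the head of the subunit, read 14.80 and 15.35 (0.55), then 13.57 and 14.34 (0.77). Rps18, also of the head, differed by 0.55 and 0.46. Rpsa, which sits on the back of the subunit, reached 0.70 in the crypts, at 12.84 and 13.54.

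Rps19 read 14.10 in GFPhigh and 14.74 in GFPlow (0.63), and in the crypts it had the largest value outside the 2-fold group. Rps24 read 14.77 and 14.98 (0.22), and differed by 0.59 in the crypts, and Rps26 read 14.73 and 14.97 (0.23), then 14.53 and 14.97 (0.44). Rps10, which is ubiquitylated on collided ribosomes, differed by 0.28 and 0.41, or by -0.10 in the crypts when its lowest measured probe set stood for the gene. Rps20, a second target of the same ubiquitin ligase, differed by 0.04 and 0.13, with -0.09 in the sorted pair after quantile normalization.

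Rps14 differed by 0.21 in the sorted pair and 0.35 in the crypts, Rps3a1 by 0.35 and 0.38, Rps9 by 0.39 and 0.63, and Rps28 by 0.08 and 0.11. Of the 45 genes measured in both pairs, Rps7 had the value that was most above its sorted-cell value in the crypts, at 0.39 against -0.02, with 15.51 in Dox minus and 15.90 in Dox plus. Its second probe set gave 0.46 against 0.32, so that place rests on the probe set chosen.

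Of the 49 symbols, 6 mark paralogs of core proteins, and 4 of these were measured. Rpl22l1, which can take the place of Rpl22, read 13.02 in GFPhigh and 13.20 in GFPlow (0.19), and 13.91 in Dox minus and 14.12 in Dox plus (0.21). Its partner Rpl22 had larger differences, at 14.62 and 15.08 (0.46) and then 13.76 and 14.38 (0.62). Rps4l, at 9.84 and 9.90 in the sorted cells (0.06) and -0.25 in the crypts, stood apart from Rps4x, which differed by 0.39 in both pairs. Rps4x read 15.15 and 15.55, then 14.56 and 14.95. Rpl7l1, whose yeast counterpart acts in ribosome assembly, differed more than its partner. It read 9.92 and 10.57 (0.66), then 10.57 and 11.01 (0.43), where Rpl7 read 14.90 and 15.09 (0.19), then 14.76 and 15.03 (0.27). As a group the 4 paralogs had medians of 0.13 and 0.14, against 0.33 over 42 core genes in the sorted pair and 0.44 over 41 in the crypts.

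The pairs share no array, so the values of each gene in both comparisons can be set side by side. Of 45 genes measured in both, 39 (86.7%) were above 0 in both, where 37.4% of all 9023 genes measured in both pairs were. At 0.3 or more in both stood 25 (55.6%), against 17.1%. Across the 45 genes the differences correlated at Pearson r = 0.74 and Spearman rho = 0.74, against 0.29 and 0.39 across all genes. Without the 4 genes at 1 or more in either pair, the values over the other 41 were 0.48 and 0.66. These are descriptions over genes that share probe sets and arrays and are not independent. The difference was larger in the crypts for 33 of the 45, and for 4779 of all 9023 genes.

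**Figure D3:**
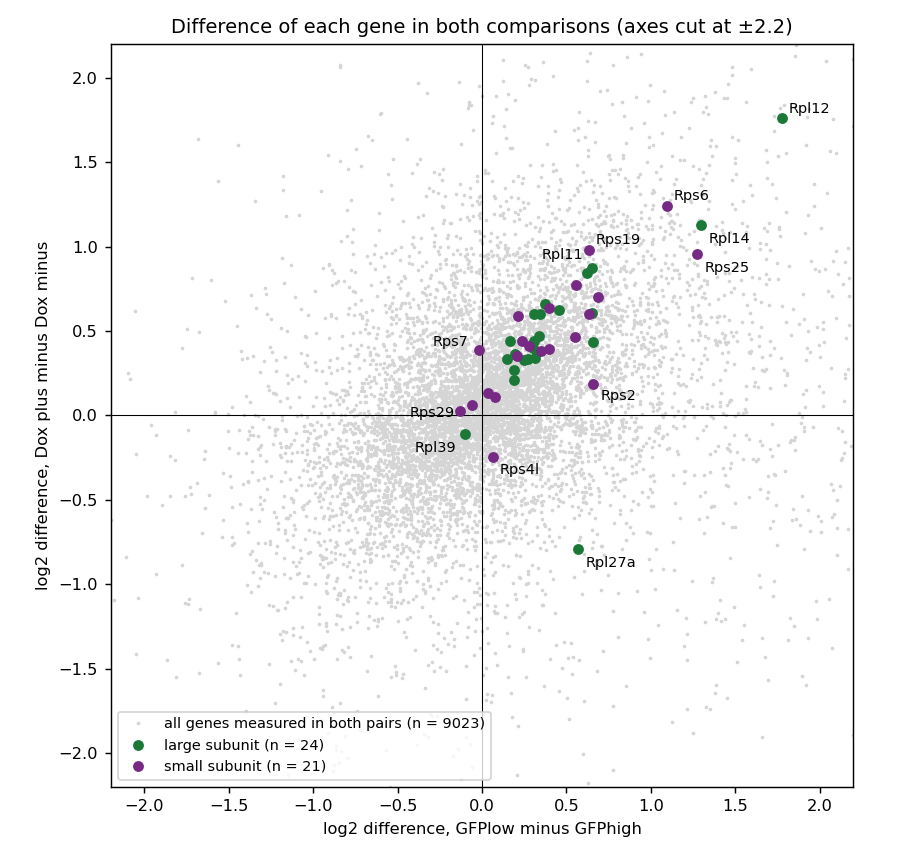
Log2 difference GFPlow minus GFPhigh (x axis) against Dox plus minus Dox minus (y axis) for large-subunit genes (green), small-subunit genes (purple) and all genes measured in both pairs (grey), 1 point per gene. Of 45 ribosomal protein genes 39 lie in the upper right, Rpl12, Rps6, Rpl14 and Rps25 farthest out, and Rpl27a and Rps4l lie in the lower right.

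Where a gene had several probe sets, they mostly pointed the same way. Of 20 genes with at least 2 probe sets above the floor on both arrays, 15 had all of them above 0 in the sorted pair and 19 in the crypt pair, Rps10 being the exception there. Among all named genes with several such probe sets, 1162 of 3712 and 1358 of 3733 had all of them above 0. No ribosomal protein gene had probe sets at 0.3 or more in opposite directions. Sizes differed more than directions. Rpl13a, known in human cells for silencing inflammatory messenger RNAs, had 4 probe sets. The one at the highest level read 15.67 in GFPhigh and 15.98 in GFPlow (0.31), and 15.37 and 15.71 in the crypts (0.34). Its probe set at 11.78 and 12.73 gave 0.95, and 12.20 and 13.55 in the crypts gave 1.35.

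The same held for 3 more genes. The 3 probe sets of Rpl22 gave 0.46, 0.79 and 1.14 in the sorted pair from the highest level to the lowest, and 0.62, 0.75 and 1.08 in the crypts. Rps3 gave 0.63 on its highest probe set and 1.19 on one that read 8.24 and 9.44, and in the crypts 0.60 and 1.87. Rps9 gave 0.39 on its highest probe set and 0.97 on one that read 5.29 and 6.27. Rpl35, by contrast, gave 0.28 to 0.50 over 5 measured probe sets in the sorted cells and 0.44 to 0.66 in the crypts.

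Over the 20 genes, the probe set at the lowest level had the larger difference than the one at the highest in 12 in the sorted pair and 13 in the crypts, or 60.0% and 65.0%, against 44.6% and 59.7% of all genes with several probe sets. Across single probe sets per gene, the level and the difference correlated at Pearson r = -0.43 over 46 genes in the sorted pair and -0.19 over 45 in the crypts, against -0.13 and -0.09 over all genes. The part of signal saturation in the size of these differences was not tested. The 33 genes with a mean level under 15 in the sorted pair had a median of 0.37, and the 32 in the crypts 0.46.

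**Figure D4:**
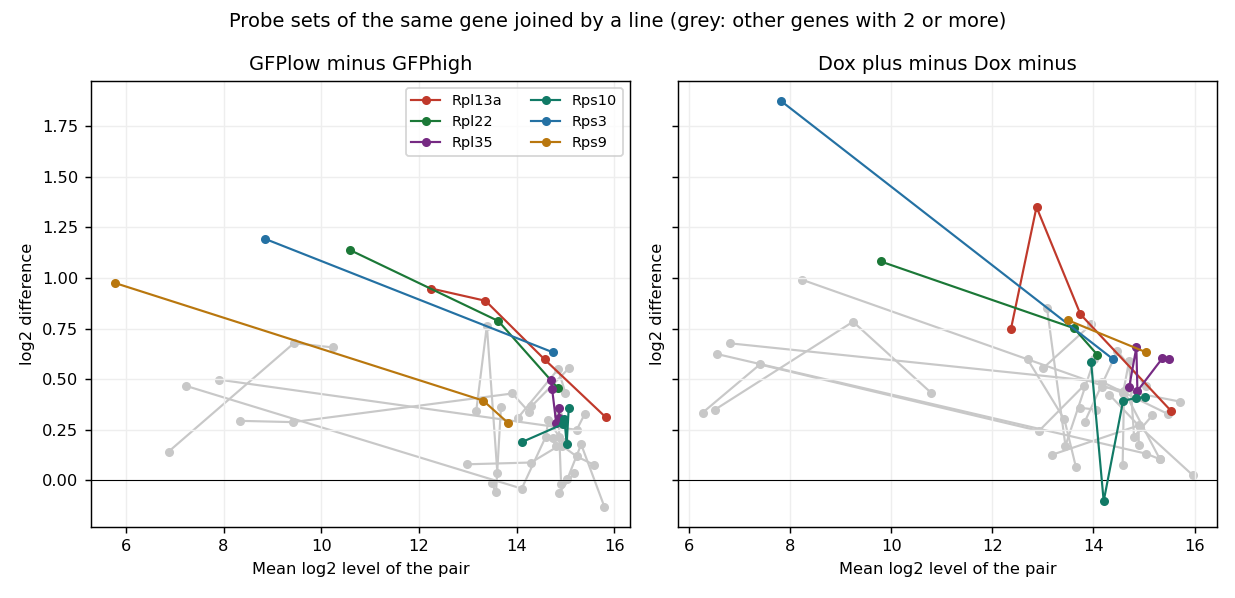
Mean log2 level of a probe set in the pair (x axis) against its log2 difference (y axis), with probe sets of the same gene joined, for genes with at least 2 probe sets above the floor on both arrays. The lines of Rpl13a, Rpl22, Rps3 and Rps9 run down to the right in the sorted pair, while Rpl35 stays between 0.28 and 0.50 there.

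Probe sets that carry several symbols could not be named and were read beside the family. Of 110 with at least 1 symbol of the form used here, 95 were measured in the sorted pair, with a median of 0.36 and 86 above 0. In the crypts 98 were measured, with a median of 0.46 and 94 above 0. Of all measured genes with a single symbol, 53.2% and 55.0% were above 0. Many of these probe sets can match pseudogenes and several family members at once, so they are not an independent reading.

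Other parts of the ribosome and its supply were read from lists of genes. Fau, which codes for a small-subunit protein fused to a ubiquitin-like protein and is outside the symbol rule, read 15.10 in GFPhigh and 15.28 in GFPlow (0.18), and 13.55 and 14.15 in the crypts (0.60). A list of elongation factors and other genes whose messenger RNAs were taken to carry the pyrimidine tract had medians of 0.34 and 0.60 over 15 genes. Above 0 were 13 and 15, against 53.2% and 55.0% of all measured genes. The tract was not searched for in these listed genes. Among them the histone chaperone Nap1l1 differed by 2.10 (4.28-fold) and 1.55, the nucleolar protein Npm1 by 0.54 and 0.98, and the initiation factor Eif4b by 0.49 and 0.92. Btf3, which binds nascent chains, differed by -0.74 in the sorted cells and 0.01 in the crypts.

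The 76 mitochondrial ribosomal protein genes, which serve the organelle's own ribosome, had medians of 0.40 and 0.44. Of these 67 and 66 were above 0, against 53.2% and 55.0% of all measured genes. Their medians were thus within 0.1 of those of the cytosolic genes. Mrps28 (1.29) and Mrps18b (1.22) led in the sorted cells, and Mrpl55 (1.45) and Mrpl21 (1.13) in the crypts.

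Factors that carry or import ribosomal proteins, together with mTOR pathway genes, had medians of 0.68 in both pairs over 14 genes, Nap1l1 being counted here too. The chaperone Tsr2, which delivers Rps26, differed by 1.68 and 0.93, Grwd1, which escorts Rpl3, by 1.02 and 1.32, and the importin Ipo5 by 1.36 and 1.53. Eif4ebp1, the translation repressor that mTOR inactivates, differed by 0.08 in the sorted cells and 1.89 in the crypts, and Mtor by 0.08 and -0.12. Rps6kb2, an S6 kinase gene, and Rptor, the mTOR partner, were the 2 genes at -0.3 or less in the sorted cells, at -0.57 and -0.51, and stood at 0.10 and 0.26 in the crypts. The 26 nucleolar assembly and polymerase genes had medians of 0.99 and 1.18. Past 2-fold were 12 and 19 of them, against 8.81% and 6.93% of all measured genes.

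**Figure D5:**
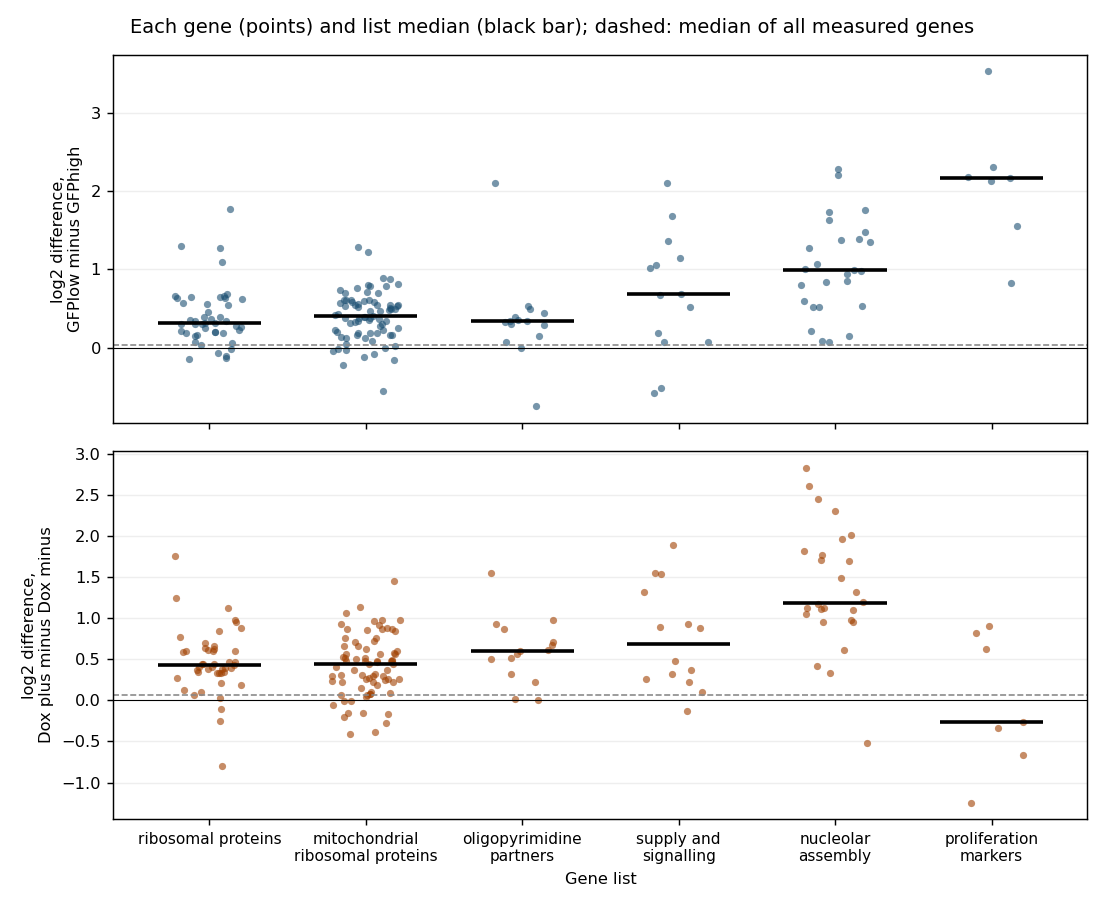
Log2 difference of each gene (points) in GFPlow minus GFPhigh (top) and Dox plus minus Dox minus (bottom) for 6 gene lists, with the list median as a black bar and the median of all measured genes as a dashed line. The ribosomal protein medians (0.32 and 0.43) lie beside those of the mitochondrial ones (0.40 and 0.44) and under those of nucleolar assembly (0.99 and 1.18), and the median of the proliferation markers changes side between the panels (2.17 and -0.27), where in the lower one 3 of 7 lie above 0.

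Markers of the cells themselves were read on the same arrays. All 10 epithelial markers were measured in both pairs. Proliferation markers had a median of 2.17 in the sorted pair but of -0.27 in the crypts (7 genes each), where they went both ways. Mcm2, Mcm6 and Pcna, which act in DNA replication, were higher in Dox plus, by 0.91, 0.82 and 0.63. The other 4 were lower, among them Aurkb at -1.24 and Mki67 at -0.67. Wnt and stem cell markers had medians of 1.39 and 2.65 over 6 genes, Myc among them at 1.46 and 2.88. Colonocyte markers had medians of -0.90 and -0.24 over 8 genes, with 8 and 6 of them below 0. The log2 of their summed level was 17.39 in GFPhigh and 16.67 in GFPlow, and 16.79 in Dox minus and 16.49 in Dox plus. Goblet cell markers had medians of 0.35 and -0.43 over 7 genes. Enteroendocrine markers had medians of -0.55 over 6 genes in the sorted pair and -2.59 over 7 in the crypts, where 7 of 7 were lower by 2-fold or more after doxycycline. The hormone gene Insl5 differed most there, at 9.92 untreated and 6.26 treated (-3.66). The log2 of their summed level was 12.44 in GFPhigh and 11.70 in GFPlow, and 13.70 in Dox minus and 11.39 in Dox plus. The part of cell makeup in the ribosomal protein differences was not tested.

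Most markers of other tissues were under the floor, with exceptions that were clearest in Dox minus. All smooth muscle and endothelial markers (5 each) and the 2 red blood cell markers on the array were under it on all arrays. Of 7 fibroblast markers Vim alone was measured, at 8.43 in Dox minus and 6.64 in Dox plus. Of 5 B and plasma cell markers on the array 1 was measured in each pair, Ighm in the sorted cells and Jchain in the crypts, where it read 7.53 in Dox minus and 4.32 in Dox plus. T cell markers were measured for 0 of 5 genes in the sorted pair and 1 of 5 in the crypts, and myeloid markers for 3 of 6 in each. Among these Laptm5 read 7.58 in Dox minus and 6.05 in Dox plus (-1.53). Lyz2 went the other way, at 5.59 and 6.30 (0.71), and Csf1r read 5.67 and 5.59 (-0.08). The log2 of the summed level of the myeloid list was 6.58 in GFPhigh and 7.20 in GFPlow, and 8.33 in Dox minus and 7.83 in Dox plus.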

How the data were processed

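Total RNA of 4 samples was labelled and hybridised to 1 array each, per the labels' protocols. The deposited values are log2 expression, 1 per probe set (45101), made by the authors with GCRMA, per the submitters' processing notes, without a stated version. GCRMA removes a background modelled from probe sequence, so low values carry little information, and the top of the scale is compressed where probes near saturation. Probe sets were named from the platform annotation (34958 with 1 symbol). All 49 gene IDs matched the RefSeq table with the same symbol.

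Values under the floor of 5 were set to it, and log2 differences were taken within each pair in Python 3.11.15 with pandas 2.3.3, scipy 1.17.1 and statsmodels 0.14.6. Thresholds were 1 and 0.3 (log2). With 1 array per group there was no test. The difference step was tested on simulated data with 200 changed genes. Alternatives were other floors (4, 6, 10) or none, quantile normalization, loess (span 0.4), 2 other ways to pick a probe set and 2 probe set filters.

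Genes named by rule were those past 2-fold, the 5 highest and 5 lowest in each pair, those under the floor, members of fixed role groups and members with opposed probe sets (24 genes in all). Other genes are named to complete the account, after their values were seen. Members and lists were chosen with earlier results of these data known.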

Additional observations from a re-analysis of the deposited data

How the results depend on the processing

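The family's median stayed above 0 under every alternative run, from 0.24 to 0.57 in the sorted pair and from 0.35 to 0.63 in the crypts, so neither quantile normalization nor loess turned its direction. With the 3 kinds of probe set marked as shared (_x_at, _s_at, _a_at) left out, 19 and 18 genes remained. The sorted pair then had a median of 0.57 (0.54 above that of all genes), subunit medians of 0.45 (large) and 0.68 (small), 17 genes above 0 and 13 at 0.3 or more. The crypts had a median of 0.63 (0.56 above that of all genes), a small-subunit median of 0.97, 15 genes above 0, 14 at 0.3 or more and 5 at 1 or more. In the sorted pair Rpl12, Rpl14, Rps25, Rps6 and Rps3 were at 1 or more. The shares of all genes under this filter are not given here. Fewer genes entered these counts, and the cause of the higher medians was not tested. Without _x_at probe sets alone the small-subunit median in the crypts was 0.53, and without genes at a mean level of 15 or more, a setting chosen after seeing the data, 0.52. Quantile normalization gave a small-subunit median of 0.21 in the sorted pair. The median above that of all genes was 0.38 with loess in the sorted pair and 0.50 without a floor in the crypts. Counts past 2-fold were small and moved most: a floor of 6 gave 2 and a floor of 10 gave 0 in the sorted pair, and the crypts had 0 with a floor of 10 and 7 with the lowest measured probe set. At -0.3 or less in the crypts stood 0 genes with a floor of 10 and 2 with either quantile normalization or loess. Among single genes, Rps10 in the crypts turned from 0.41 to -0.10 with its lowest measured probe set. No paired analysis was possible because each group has 1 array. Signal over background limits Rps16, Rpl3l and Rpl39l, which were under the floor on all arrays. It also limits Rps27, just above the floor in the sorted pair and under it in the crypt pair. Rpl12 and Rps25, at 5.05 and 5.52 in GFPhigh, lay close to the floor as well.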
